A study of Mus musculus with 12 samples.

Results

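The genes described here are 36 genes of motile cilia, the beating hair-like structures that multiciliated cells of the oviduct carry on their surface, read from arrays of mouse abdominal fat. They were listed by name, as genes that multiciliated cells are known to use. The list was chosen with earlier results of these data known, so its shares beside those of all genes are descriptions and not independent support. Of the 36, 34 had at least 1 Affymetrix probe set named by the platform's annotation (48 probe sets in all, of 18194 genes measured). Mcidas, which starts the multiciliated programme, and Sntn, which encodes a protein of the ciliary tip, are named in the set and have no probe set in that annotation. For 25 of the 34 a single probe set stood for the gene, and for the other 9 the value is the mean of several.

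The study set p47phox null mice beside wild type mice on a high fat diet or on casein, with the diets starting on postnatal day 28 and lasting 13 weeks. The 4 groups, with 3 pools of fat pads in each and 1 array per pool, were p47phox null on the high fat diet, wild type on the high fat diet, p47phox null on casein and wild type on casein. All animals were female and of the C57BL/6 background. How many animals made up a pool is not given in the sources used here, so the p-values measure the spread between these pools, which may be partly technical.

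A motile cilium is built on a ring of doublet microtubules, the axoneme, around a central pair. Dynein arms on the doublets make it bend, radial spokes and the central pair time the bending, and tektins and other proteins inside the doublets stiffen them. In the oviduct, ciliated cells move eggs and fluid and stand beside secretory cells, which make oviductin, the product of Ovgp1; ciliated cells also line airways and brain ventricles, so the genes do not name an organ by themselves.

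The promoters of the set are shown first, as a feature that many ciliary genes share. The RefSeq table of build GRCm38.p6 held a window from 250 bases before to 50 bases after the start for 32 of the 36 members. On both strands, 8 spellings were searched, most of them versions of the RFX and forkhead motifs. GTTGCC, the core that RFX factors are known to bind, occurred in 17 of 32 members (53.1%), against 14.1% of all 27025 genes with a window and 14.7% of the 14453 measured genes with one. Among other genes of motile cilia it occurred in 26 of 59 (44.1%), and among genes of ciliary transport and the BBSome in 11 of 24 (45.8%). GTTGCTA, a variant of the same core, occurred in 7 of 32 members (21.9%) and 4.28% of all genes, and TGTTTAC, the forkhead core, in 4 of 32 (12.5%) and 4.05% of all genes. The forkhead core occurred in 2 of 59 other genes of motile cilia (3.39%) and in 0 of 24 transport genes. The longer spellings that contain GTTGCC overlap with it: GTTGCCA was found in 9 members (28.1%; 5.02% of all genes) and GTTGCCNNG in 12 (37.5%; 5.74%). TGTTTG was found in 12 members (37.5%; 20.4% of all genes and 11.9% of the other genes of motile cilia), ATCAACA in 1 (3.12%; 2.97%) and ACAACAC in 0 members and 3.76% of all genes. A match is a run of letters and not evidence of a bound site.

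Below are the 150 bases before the start of 5 members, read 5′ to 3′ on the strand of the gene, with the cores GTTGCC and GTTGCTA and also TGTTTAC in capitals on either strand. Dynlrb2 had the largest genotype difference of the set, Ak7 is the called member with a forkhead match, and Enkur, Lrrc23 and Mns1, none of them called, are shown because they carry the GTTGCC core. The positions are chr8:116504865-116505014 on the plus strand for Dynlrb2, chr2:21205366-21205515 on the minus strand for Enkur, chr6:124779728-124779877 on the minus strand for Lrrc23, chr9:72438379-72438528 on the plus strand for Mns1 and chr12:105705832-105705981 on the plus strand for Ak7.
Dynlrb2: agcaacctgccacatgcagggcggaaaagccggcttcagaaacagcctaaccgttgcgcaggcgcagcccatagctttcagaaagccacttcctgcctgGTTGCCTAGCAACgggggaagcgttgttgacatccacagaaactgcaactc
Enkur: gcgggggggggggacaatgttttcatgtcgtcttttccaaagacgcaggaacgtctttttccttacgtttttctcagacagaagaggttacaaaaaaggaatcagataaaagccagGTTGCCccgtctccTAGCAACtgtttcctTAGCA
Lrrc23: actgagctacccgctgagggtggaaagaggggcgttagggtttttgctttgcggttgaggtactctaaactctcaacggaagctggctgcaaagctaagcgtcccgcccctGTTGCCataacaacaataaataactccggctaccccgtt
Mns1: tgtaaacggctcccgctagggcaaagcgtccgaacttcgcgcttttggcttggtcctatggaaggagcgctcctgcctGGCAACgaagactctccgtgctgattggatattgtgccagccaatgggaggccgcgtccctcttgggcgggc
Ak7: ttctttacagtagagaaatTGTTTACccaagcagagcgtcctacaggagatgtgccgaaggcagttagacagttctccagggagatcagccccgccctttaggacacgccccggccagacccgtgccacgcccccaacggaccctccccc
In Dynlrb2 the GTTGCC lies 51 bases before the start and runs straight into a GTTGCTA of the opposite strand, which begins 45 bases before it. Enkur has GTTGCC 34 bases before the start and GTTGCTA of the opposite strand 20 bases before it, and its last capitals open a further match that runs past the start. The core lies 39 bases before the start of Lrrc23 and, on the opposite strand, 72 bases before that of Mns1. In Ak7 the forkhead core lies 131 bases before the start.

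The deposited values are on a log2 scale and each probe set is centred on its median over the 12 pools, so a value says how far a pool lies from the middle of the pools and nothing about how abundant the transcript is. Levels of different genes can therefore not be compared. Ncf1, which encodes p47phox, was checked first, with the labels: 1 of its probe sets lay between -0.54 and -0.33 in the 6 null pools and between 0.33 and 1.71 in the 6 wild type pools, a second separated the genotypes as well, and the third did not. Some pools were high for genes of other tissues. The median of 15 skeletal muscle genes was 3.79 in null high fat pool 1, 4.58 in wild type high fat pool 2 and 3.08 in wild type casein pool 1, and in wild type casein pool 3 the median of 11 liver genes was 4.64 and that of 4 adrenal genes 3.71. Of these 4 pools, 3 (null high fat pool 1, wild type high fat pool 2 and wild type casein pool 3) were also left out together, while wild type casein pool 1 was kept, and the results without the 3 stand beside those with them. Null casein pool 1, with a muscle median of 2.03, and wild type high fat pool 3, with a liver median of 1.43, were kept as well.

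Over the 12 pools many of the cilia genes, but not all, followed a pattern that ran across the groups. Ovgp1 had values of 3.74, 4.13 and 4.77 in the null pools on the high fat diet, against -3.90, -3.80 and -4.10 in the wild type pools on that diet. On casein it had -3.09, 3.09 and 4.09 in null pools, against 3.90, -4.39 and -3.82 in wild type pools. So 6 pools were high for this secretory gene: all 3 null pools on the high fat diet, null casein pools 2 and 3, and wild type casein pool 1. Null casein pool 1 and wild type casein pool 1 lay apart from the other pools of their groups, although their Ncf1 values fitted their labels in the 2 probe sets that separated the genotypes. In both of those, wild type casein pool 1 had the lowest wild type value (0.16 and 0.33).

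The same 6 pools were the 6 highest for 12 of the 34 members (35.3%), against 3.72% of all genes, and at least 5 of the 6 were shared by 22 members (64.7%), against 14.9% of all genes. The 12 were Foxj1, Rsph1, Rsph4a, Rsph9, Dnali1, Dynlrb2, Cfap52, Cfap126, Ak7, Capsl, Tmem212 and Enkur. Of the 9 with a promoter window 2 (Dynlrb2 and Enkur) hold GTTGCC, as do 13 of the 21 other measured members with one. Null high fat pool 3 held the highest value of 13 members and null high fat pool 2 that of 12. On the high fat diet 25, 32 and 34 members lay above 0 in null pools 1, 2 and 3, against 7, 3 and 8 in wild type pools. On casein the counts were 8, 19 and 31 in null pools, against 28, 9 and 3 in wild type pools. Because whole fat pads were measured, fewer cells of a type and less RNA per cell cannot be told apart.

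**Figure D1:**
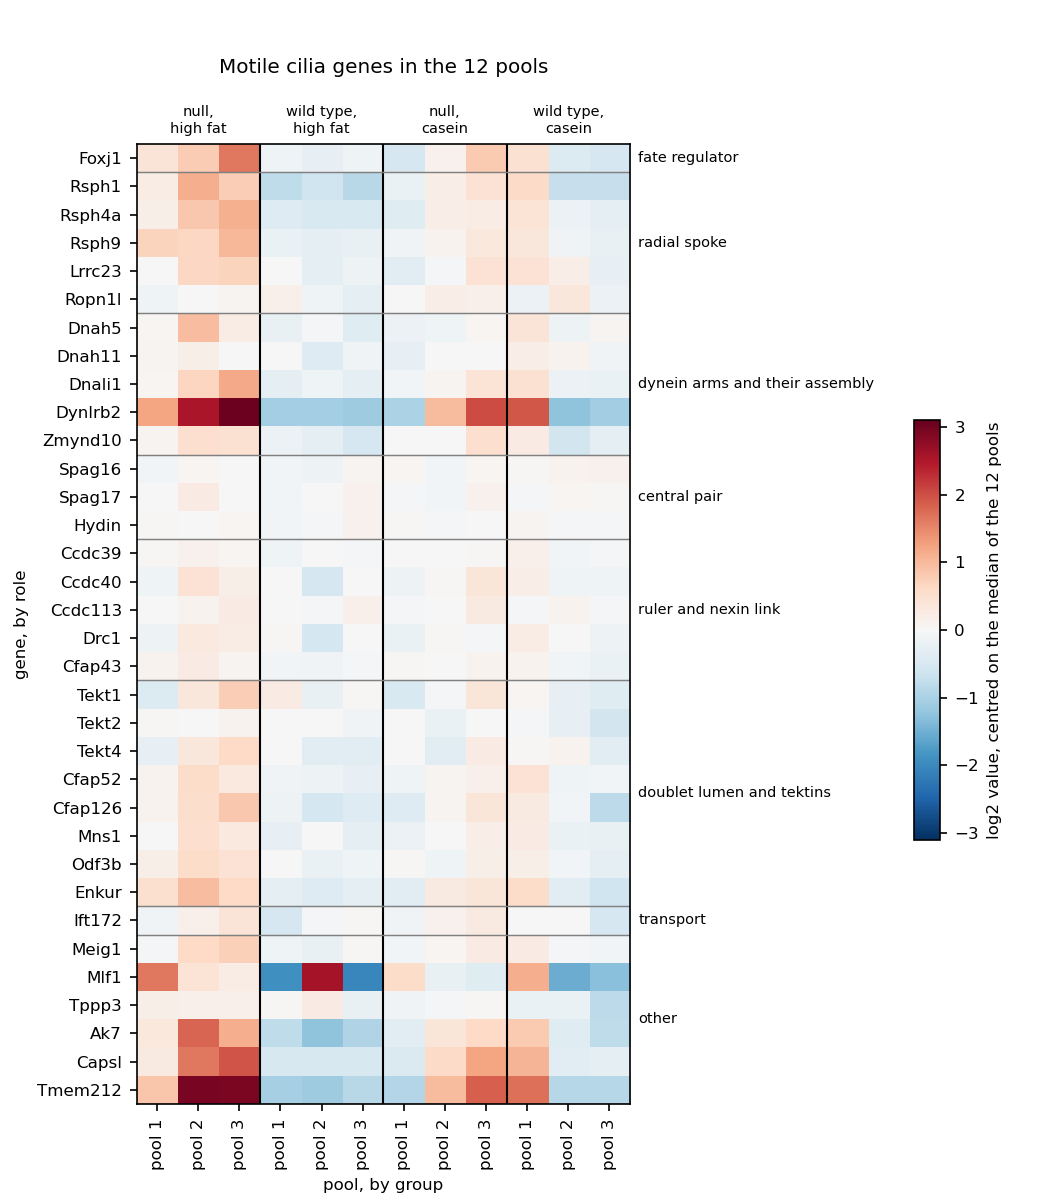
Centred log2 values of the 34 motile cilia genes (rows, ordered by role) in the 12 pools (columns, by group), with red above and blue below the median of the 12 pools. Dynlrb2 and Tmem212 reach 3.04 and 2.94 in high fat null pools, while Spag16, Spag17 and Hydin are close to white in every pool.

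Foxj1 encodes the forkhead factor that switches on the genes of motile cilia. Its values were 0.39, 0.78 and 1.64 in high fat null pools, against -0.13, -0.26 and -0.12 in wild type pools on that diet. On casein they were -0.51, 0.12 and 0.82 in null pools, against 0.47, -0.42 and -0.53 in wild type pools. The genotypes did not overlap on the high fat diet and overlapped on casein. The difference on the high fat diet was 1.11 ± 0.39 (SE, n = 3 pools each), which did not pass the threshold of 0.05 in limma (adjusted p = 0.108).

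On the high fat diet, null pools had higher values than wild type pools for 4 of the 34 members by limma with Benjamini-Hochberg adjustment over all genes, and lower values for 0. Over all 18194 genes 3.21% were called higher and 2.71% lower in this comparison (5.92% in either direction). The difference was above 0 for 34 of 34 members, with a median of 0.51 beside -0.03 for all genes. At an unadjusted p under 0.05, 20 members were higher (12.3% of all genes), and for 20 members every null pool lay above every wild type pool (14.9% of all genes), while in 0 members every null pool lay below (17.3% of all genes).

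Of the called members, 3 encode proteins of the radial spoke head. Rsph1 had values of 0.24, 1.13 and 0.77 in high fat null pools, against -0.80, -0.62 and -0.86 in wild type pools, a difference of 1.48 ± 0.34 (SE; limma adjusted p = 0.0374). Rsph4a had 0.18, 0.84 and 1.11 in null pools, against -0.40, -0.46 and -0.47 in wild type pools, a difference of 1.16 ± 0.26 (limma adjusted p = 0.033). Rsph9 had 0.69, 0.64 and 1.04 in null pools, against -0.21, -0.31 and -0.23 in wild type pools, a difference of 1.04 ± 0.16 (limma adjusted p = 0.0182). In all 3 the null pools stood clear of the wild type pools, and for Rsph1 and Rsph4a null pool 1 was the lowest of its group. The other radial spoke genes were not called: Lrrc23 had a difference of 0.60 (adjusted p = 0.157) with groups that did not overlap, and Ropn1l one of 0.07 (adjusted p = 0.831) with groups that did.

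The fourth called member was Ak7, an adenylate kinase of the axoneme. Its values were 0.32, 1.81 and 1.12 in high fat null pools, against -0.79, -1.25 and -0.93 in wild type pools. The difference was 2.07 ± 0.44 (SE; limma adjusted p = 0.0316), and every null pool was above every wild type pool.

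The 2 largest differences of the set did not pass the test. Dynlrb2, a light chain of dynein, had 1.23, 2.52 and 3.04 in high fat null pools, against -1.06, -1.06 and -1.10 in wild type pools. Tmem212, which encodes a membrane protein abundant in ciliated cells, had 0.85, 2.94 and 2.91 in null pools, against -1.02, -1.10 and -0.85 in wild type pools. The groups did not overlap in either gene, and the wild type pools on this diet lay far closer to each other than the null pools did. The fitted differences were 3.34 ± 0.90 for Dynlrb2 (limma adjusted p = 0.0552) and 3.22 ± 0.85 for Tmem212 (limma adjusted p = 0.052). In the same fit the difference of Ovgp1 was 8.15 ± 2.16 (limma adjusted p = 0.0525). On casein these 2 genes split their groups: Dynlrb2 had -0.97, 0.97 and 2.03 in null pools, against 1.92, -1.26 and -1.09 in wild type pools. The model takes 1 spread for all 4 groups of a gene, so the split on casein enters the error of the comparison on the high fat diet.

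**Figure D2:**
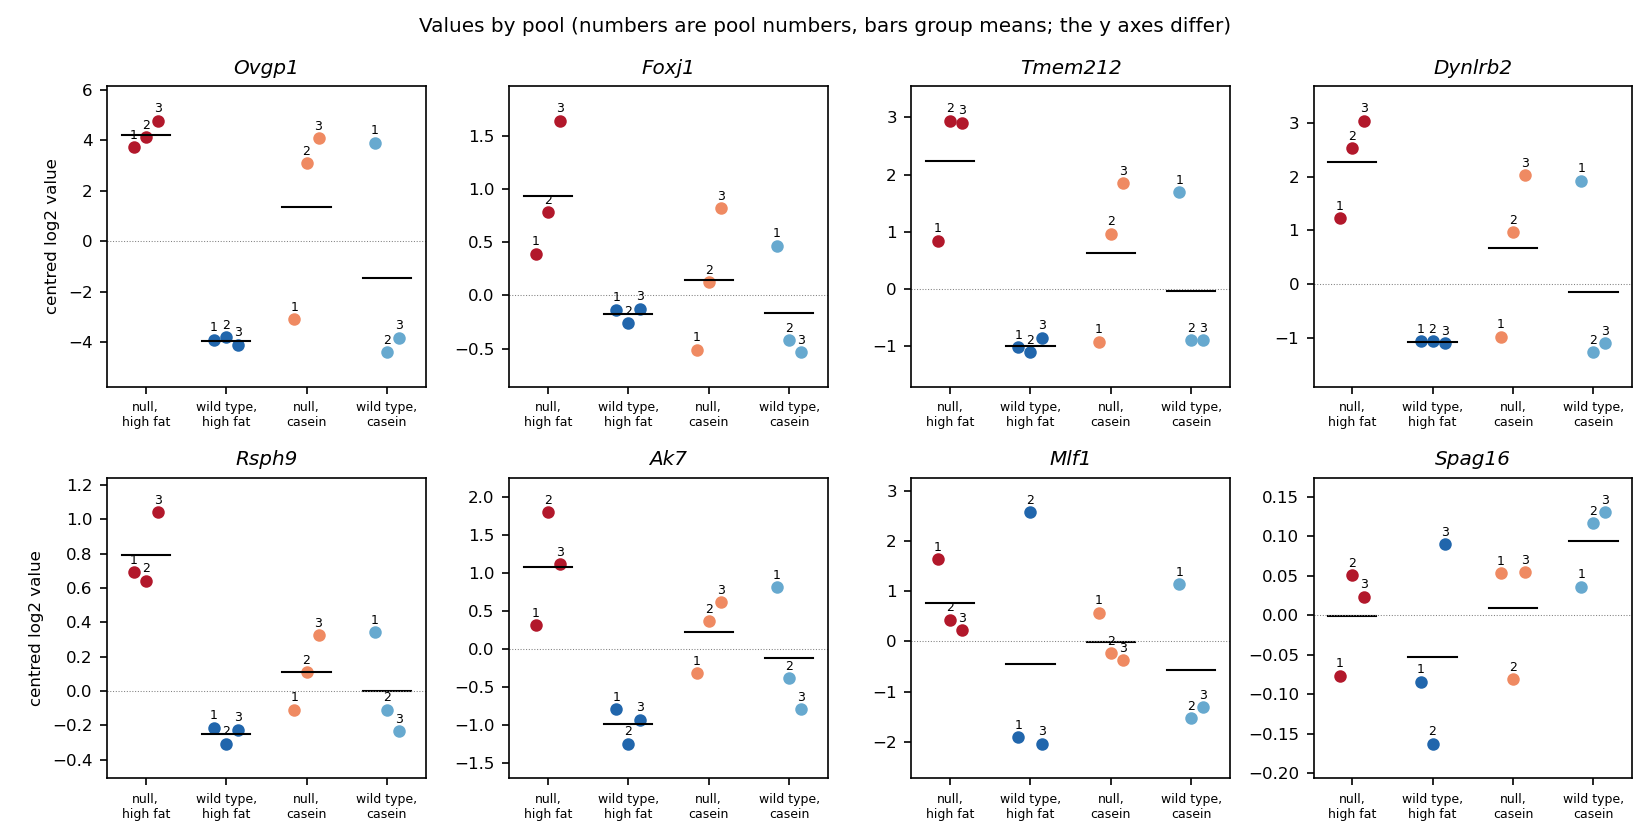
Centred log2 values of Ovgp1 and 7 motile cilia genes in each pool (points, with the pool number) and the mean of each group (bars), with the y axis set per gene. Ovgp1, Foxj1, Tmem212, Dynlrb2, Rsph9 and Ak7 share the high pools, Mlf1 is highest in wild type high fat pool 2, and Spag16 stays between -0.16 and 0.13.

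The other dynein genes differed less. Dnali1, an inner arm chain, had a difference of 0.86 on the high fat diet (adjusted p = 0.0774), Zmynd10, an assembly factor of the arms, one of 0.70 (adjusted p = 0.0804), and Dnah5, an outer arm heavy chain, one of 0.64 (adjusted p = 0.0966). Dnah11, another outer arm heavy chain, had a difference of 0.27 (adjusted p = 0.19). None of these 4 passed the limma threshold, although the genotypes did not overlap on this diet in any of them. For Dnah5 null high fat pool 2 stood apart, with 0.95 beside 0.07 and 0.22 in the other null pools.

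Among the genes of the doublets, Enkur came nearest to the threshold apart from Odf3b. Enkur, a protein of the doublet interior, had 0.49, 0.95 and 0.62 in high fat null pools, against -0.31, -0.40 and -0.27 in wild type pools, a difference of 1.02 ± 0.28 (SE; limma adjusted p = 0.0589). Odf3b had a difference of 0.51 ± 0.14 (limma adjusted p = 0.0569). Cfap126, Cfap52 and Mns1, which also belong to the doublets, had differences of 0.86, 0.50 and 0.45 with groups that did not overlap, and none passed the test. The tektins, filament proteins of the doublet wall, had overlapping groups: the difference was 0.45 for Tekt4, 0.21 for Tekt1 and 0.09 for Tekt2. Tekt1 was at -0.42 in null high fat pool 1, below all 3 wild type pools on that diet.

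The genes of the central pair had narrow ranges, as means of their probe sets. Spag16 ranged from -0.16 to 0.13 over the 12 pools, Spag17 from -0.08 to 0.26 and Hydin, a large protein of the central pair, from -0.10 to 0.13. Their differences on the high fat diet were 0.05, 0.08 and 0.03. Centred values do not say whether such a gene was above background in any pool. Ccdc39 and Ccdc40, which together set the repeat of the axoneme as a molecular ruler, had differences of 0.14 and 0.35, and Drc1, of the nexin link, had 0.30. Cfap43 had 0.23 and Ccdc113 had 0.09, and none of these 5 was called. Ift172, which carries cargo into the cilium, had a difference of 0.33 with overlapping groups.

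Probe sets of a gene did not always vary alike. Of the 2 probe sets of Cfap52, 1 ran from -0.39 to 1.02 over the pools and the other from -0.14 to 0.12. Of the 3 of Cfap43, 1 ran from -0.37 to 0.71 and another from -0.11 to 0.14. Of the 3 of Ccdc39, 1 ran from -0.31 to 0.41 and another from -0.14 to 0.17. In the wider one of Ccdc39 the high fat null pools lay between 0.03 and 0.31 and the high fat wild type pools between -0.31 and -0.15. Of the 2 of Spag17, 1 reached 0.61 in null high fat pool 2, and the 4 of Spag16 each spanned 0.51 to 0.56, beside 0.29 for their mean and a median span of 0.56 over all probe sets. With the probe set of largest SD in place of the mean, the difference on the high fat diet was 1.02 for Cfap52 (limma adjusted p = 0.0546) and 0.70 for Cfap43 (limma adjusted p = 0.0571), and with the median of the probe sets it was 0.08 for Cfap43.

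Capsl, a calcium-binding protein, had 0.29, 1.64 and 1.95 in high fat null pools, against -0.48, -0.49 and -0.50 in wild type pools, a difference of 1.79 ± 0.52 (SE; limma adjusted p = 0.0677) with no overlap. Meig1, known for its part in making sperm in mice, had a difference of 0.55, and Tppp3, a protein that binds tubulin, one of 0.15. Mlf1 and Tppp3 were the members with their highest value in wild type high fat pool 2. The values of Mlf1 were 1.63, 0.43 and 0.23 in high fat null pools, against -1.91, 2.57 and -2.03 in wild type pools. On casein it had 0.57, -0.23 and -0.37 in null pools, against 1.13, -1.53 and -1.31 in wild type pools. The groups overlapped on both diets, and the difference on the high fat diet was 1.22 ± 1.12 (SE; limma adjusted p = 0.552). Wild type high fat pool 2 was also the highest pool of the skeletal muscle median, and null high fat pool 1 was second in both, with 1.63 for Mlf1 and 3.79 for the muscle median. The part of muscle RNA in the values of Mlf1 was not tested.

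**Figure D3:**
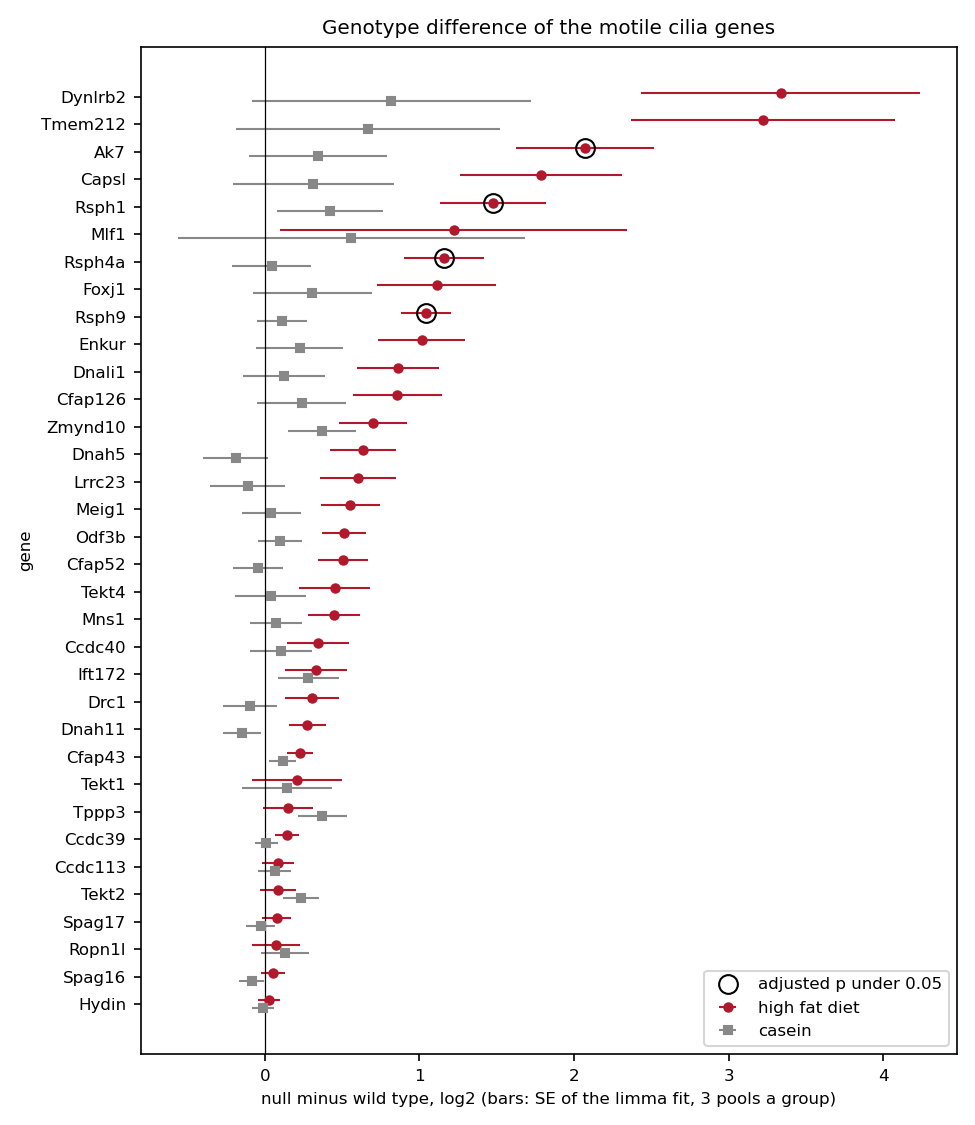
Null minus wild type difference (log2, with the SE of the limma fit, 3 pools a group) of each motile cilia gene on the high fat diet (red) and on casein (grey), in order of the difference on the high fat diet. All 34 red points lie right of 0, and rings mark Ak7, Rsph1, Rsph4a and Rsph9, the 4 genes with an adjusted p under 0.05.

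The count of 4 changed when single pools were left out, while the differences changed less. Over 22 alternatives, omissions included, the difference ran from 1.27 to 1.80 for Rsph1, 0.96 to 1.42 for Rsph4a, 0.92 to 1.12 for Rsph9 and 1.71 to 2.70 for Ak7. The count was 0 without null high fat pool 2, without null high fat pool 3 or without wild type high fat pool 3, and over all genes the same omissions left 0, 0 and 32 calls, against 1077. It was 1 without wild type high fat pool 1, without wild type high fat pool 2 or without null casein pool 2. Leaving out null casein pool 1 gave 7, and 11 were called when null high fat pool 1 or wild type casein pool 1 was left out, and 6 when wild type casein pool 3 was. The number of all genes called also moved with the pool left out, as the closing section gives. Apart from the omissions that left 0 members, the share of all genes in the same fit is not given here. A rise in the count is therefore no result about the members by itself. With null high fat pool 1, wild type high fat pool 2 and wild type casein pool 3 left out together, 3 members were called: Rsph9 (1.06, adjusted p = 0.0455), Ak7 (2.33, adjusted p = 0.0442) and Rsph4a (1.41, adjusted p = 0.0434), while Rsph1 had 1.78 (adjusted p = 0.0561). Without those pools the median of the members was 0.65.

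On casein, null and wild type pools were not separated by these genes. In limma 0 of 34 members were called, as were 0% of all genes, with a smallest adjusted p of 0.604 among the members. The difference was above 0 for 26 members with a median of 0.11, beside -0.01 for all genes. Only Tppp3 had an unadjusted p under 0.05 (3.62% of all genes were higher at that level), with a difference of 0.37, and it was also the 1 member whose null pools all lay above the wild type pools (5.4% of all genes); in 0 members did they all lie below (6.57% of all genes). Rsph9 had -0.11, 0.11 and 0.32 in null pools, against 0.34, -0.11 and -0.24 in wild type pools, and Ak7 had -0.32, 0.37 and 0.62 in null pools, against 0.82, -0.38 and -0.79 in wild type pools. In both, wild type casein pool 1 was the highest of the 6 pools.

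Averaged over both diets, null pools had higher values than wild type pools for 3 of 34 members and lower values for 0, against 4.09% and 3.42% of all genes (7.52% in either direction). The 3 were Rsph9 (0.58 ± 0.12, adjusted p = 0.0228), Rsph1 (0.95 ± 0.24, adjusted p = 0.0425) and Ak7 (1.21 ± 0.31, adjusted p = 0.0454; SE, limma). The median of the members was 0.26, and 33 of 34 were above 0, with Spag16 at -0.02. With the same 3 pools left out, 0 members were called. With 1 pool left out the count was 0 for wild type high fat pool 3, null high fat pool 3, null casein pools 2 and 3 and wild type casein pool 2, and 1 for wild type high fat pools 1 and 2, null high fat pool 2 and wild type casein pool 3. It was 7 without null casein pool 1, 10 without null high fat pool 1 and 13 without wild type casein pool 1. These counts are not set beside the share of all genes in the same fits, which also moved with the pool left out. Ovgp1 had an averaged difference of 5.47 ± 1.53 (limma adjusted p = 0.0555) and Foxj1 one of 0.71 ± 0.27 (limma adjusted p = 0.133). Subtracting Ovgp1 from Foxj1 in each pool gave a genotype difference of -4.76, with p = 0.02 in a two-sided exact permutation test of the genotype labels within each diet (400 arrangements, smallest possible p 0.005, n = 6 pools each). The exact p was 0.117 without the 3 pools and 0.055 after quantile normalization. Ovgp1 spanned 9.16 over the pools and Foxj1 2.17, so this difference mostly restates that of Ovgp1 and sets no level of ciliated against secretory cells. The exact p was 0.08 without wild type casein pool 2 or pool 3 and 0.075 without null casein pool 2 or pool 3. With pools left out there are fewer than 400 arrangements, so the smallest possible p is larger and these p-values are coarser.

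High fat diet and casein pools were compared within each genotype, and these comparisons share pools with those above. In null pools 0 of 34 members were called by limma, as were 0% of all genes. The difference, high fat diet minus casein, was above 0 for 32 members with a median of 0.28, 4 members had an unadjusted p under 0.05 (2.07% of all genes were higher at that level), and in 5 every high fat pool lay above every casein pool (4.89% of all genes), with 0 members the other way (5.7% of all genes). Those 5 were Rsph9, Dnah5, Ccdc39, Tppp3 and Enkur. Rsph9 had 0.69, 0.64 and 1.04 in high fat null pools, against -0.11, 0.11 and 0.32 in null pools on casein, a difference of 0.68 ± 0.16 (SE; limma adjusted p = 0.9996).

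In wild type pools 0 of 34 members were called by limma, again beside 0% of all genes. The difference was above 0 for 6 members with a median of -0.15, and 2 members, Tppp3 with 0.43 and Tekt2 with 0.26, had an unadjusted p under 0.05 (4.68% of all genes were higher at that level). In 3 members every high fat pool lay below every casein pool (4.86% of all genes), and in 0 every one lay above (7.07% of all genes); the 3 were Rsph4a, Ak7 and Capsl. Ak7 had -0.79, -1.25 and -0.93 in high fat wild type pools, against 0.82, -0.38 and -0.79 in wild type pools on casein.

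The genotype difference was not shown to depend on diet. The interaction, or diet difference of the null pools less that of the wild type pools, was called for 0 of 34 members and 0% of all genes by limma, with a smallest adjusted p of 0.789 among the members. It was above 0 for 31 members with a median of 0.42, and 6 members had an unadjusted p under 0.05 (2.7% of all genes were higher at that level). Rsph9 had the smallest p of the set, with an interaction of 0.93 ± 0.23 (SE; limma adjusted p = 0.789), and Rsph4a followed with 1.11 ± 0.36 at the same adjusted p.

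Other ciliary genes were read from lists beside the set. Among 72 further genes of motile cilia, 4 were higher in high fat null pools than in high fat wild type pools by limma and 0 lower (3.21% and 2.71% of all genes), and 59 differences were above 0, with a median of 0.27. The 4 were Cdhr4 (1.65), Spag1 (1.58), a dynein assembly factor, Cfap65 (0.89) and Nme5 (0.69). Their 6 highest pools were those of Ovgp1 in 16 of 72 genes (22.2%, against 3.72% of all genes). Among 28 genes of ciliary transport and the BBSome, which cells with a primary cilium also use, 3 were higher and 0 lower in the same comparison: Ift122 (0.87), Bbs2 (0.60) and Ift140 (0.48). Their median was 0.14, and 3 of the 28 (10.7%) had the 6 highest pools of Ovgp1.

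Lists of other tissues shared the 6 highest pools of Ovgp1 to unlike degrees: 13 of 15 epithelial genes did (86.7%), 4 of 11 ovarian (36.4%), 3 of 10 uterine (30.0%), 2 of 11 mesothelial (18.2%), and 0 of 15 oocyte, 4 adrenal, 15 muscle, 11 liver and 11 adipocyte genes. At least 5 of the 6 pools were shared by 14 of the 15 epithelial genes (93.3%) and 11 of the 15 oocyte genes (73.3%). The same held for 7 of 11 ovarian (63.6%), 4 of 10 uterine (40.0%) and 3 of 11 mesothelial genes (27.3%). Over all genes 3.72% shared all 6 pools and 14.9% at least 5. The median of 15 epithelial genes was 0.19, 0.88 and 1.36 in high fat null pools, against -1.02, -1.23 and -1.12 in wild type pools on that diet. On casein it was -0.47, 0.89 and 1.37 in null pools, against 2.21, -1.06 and -0.31 in wild type pools. Of the 15, 1 was called, against 3.21% of all genes: Emx2, which encodes a homeobox factor needed for the reproductive tract, was higher in high fat null pools than in high fat wild type pools by limma (2.55 ± 0.65, adjusted p = 0.0471). The median of 11 genes of ovarian somatic cells was 0.15, 0.65 and 0.78 in high fat null pools, against -1.13, -1.25 and -1.15 in wild type pools on that diet, and 6 of the 11 were called higher, among them Inha, a subunit of inhibin (6.79), and Hsd3b1, a steroid enzyme (8.26). On casein the ovarian median was -0.02, 0.15 and 0.34 in null pools, against 0.02, -1.16 and -0.42 in wild type pools. So null casein pool 1, which was low for Ovgp1, was not low for this median. Single ovarian genes were unlike there: Cyp17a1 had -1.37, against 3.45 and 3.75 in null casein pools 2 and 3. Inhba had -0.35, against 0.76 and 0.63, and Star had 1.40, against -0.06 and 0.12. In wild type casein pool 3 the ovarian genes differed among themselves, with 4.30 for Star and 1.14 for Hsd3b1, which the adrenal gland also uses, and -5.04 for Inha.

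Of 15 oocyte genes 5 were higher in high fat null pools than in high fat wild type pools, against 3.21% of all genes. Of 10 uterine genes 0 were called, though in 4 every null pool lay above every wild type pool (14.9% of all genes). The median difference of the 10 was 0.23, and 8 of the 10 were above 0. Ltf and Sprr2f lay far above that median. Ltf, which encodes lactoferrin, had 2.95, 2.98 and 3.30 in high fat null pools, against -2.19, -2.90 and -2.32 in high fat wild type pools (difference 5.55, limma adjusted p = 0.0679). Sprr2f had 1.80, 3.88 and 2.69 in high fat null pools, against -2.22, -1.94 and -1.98 in high fat wild type pools (difference 4.84, limma adjusted p = 0.192). Both differences are larger than that of any cilia gene of the set. The adipocyte median was -0.03, -0.30 and -0.55 in high fat null pools, against 0.24, 0.15 and 0.20 in wild type pools on that diet, and 4 of 11 adipocyte genes (Lep, Pparg, Cebpa and Aqp7) were lower by limma, against 2.71% of all genes. On the high fat diet 0 of the 15 muscle and 0 of the 11 liver genes were called. The part that epithelium, ovary, uterus or other tissue in a pool had in the values of the cilia genes was not tested. Only muscle and liver medians were used, as covariates in an alternative fit. In that fit Rsph1, Rsph4a, Rsph9 and Ak7 passed the threshold on the high fat diet. Averaged over the diets Rsph9 passed it, and Rsph1 and Ak7 did not.

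**Figure D4:**
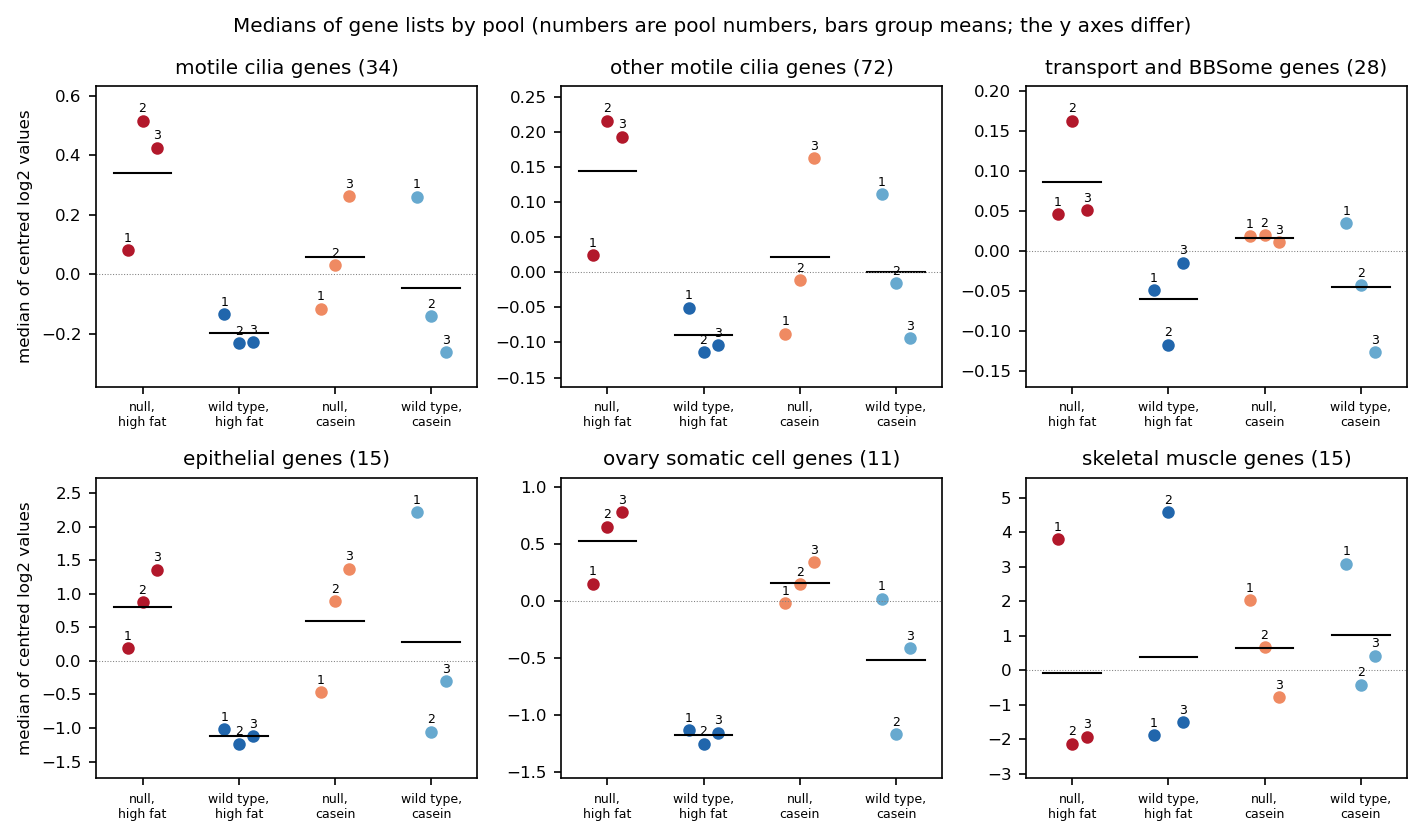
Median of the centred log2 values of 6 gene lists in each pool (points, with the pool number) and the mean of each group (bars), with the y axis set per list. The motile cilia median is highest in null high fat pool 2, at 0.52, and the muscle median is highest in wild type high fat pool 2, at 4.58.

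Outside all lists, genes were ranked by how little they differed, pool by pool, from the median of the members. The 10 nearest were Shroom3, Cryl1, Kdm1a, Hnrnpa0, Efcab1, Psmc3ip, Mak, Pdia5, Tada2a and Vangl2, with a mean absolute difference over the 12 pools of 0.071 for Shroom3 to 0.0818 for Vangl2. Iqca (0.0597) and Drc3 (0.0679), both of the list of further motile cilia genes, came nearer still and ranked first and second of all genes outside the set. The measure favours genes that vary as little as the median of the set does, between -0.26 and 0.52, and so leaves out genes that vary as widely as Dynlrb2.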

How the data were processed

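Total RNA of 12 pools of fat pads was hybridised, each pool to 1 Affymetrix array (45101 probe sets). GCOS and RMA are named, without version or setting, per the submitters' processing notes. The authors deposited log2 values (the base is taken from RMA) with each probe set centred on its median over the 12 pools: 0 of 45101 medians depart from 0 by more than 1e-06. Differences between pools are kept, but neither levels nor signal over background can be read. No batch is given.

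The platform's annotation names 1 gene for 34958 probe sets; those with several genes (932) or none (9211) were left out, and symbols were updated through RefSeq. Probe sets of a gene were averaged (18194 genes). limma 3.58.1 in R 4.3.3 fitted 4 group means to the 12 pools (8 residual and 2.5 prior degrees of freedom), two-sided, with Benjamini-Hochberg adjustment over all genes and a threshold of 0.05; the script was tested on simulated data. Foxj1 minus Ovgp1 was tested by exact permutation. All members are named; of the other lists at most 4 genes each, called ones first, then by difference on the high fat diet; outside the lists the 10 nearest in pattern. The members and lists were chosen with earlier results of these data known. Pool numbers were checked for pairing: deviations correlated above 0.1 in 3 of 18 pairs of same-numbered pools, so no block was used. The correlations ran from -0.61 to 0.59. The 2 highest, 0.55 and 0.59, were between null high fat and null casein pools 1 and 3. The number of arrays limits the precision.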

Additional observations from a re-analysis of the deposited data

How the results depend on the processing

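The difference of the members on the high fat diet kept its direction under the 22 alternatives, with a median between 0.39 and 0.66, while the number called did not: 4 members became 1 after quantile normalization, 24 with array weights (an estimate that did not fully converge), 9 among genes with an SD at or above the median SD, 8 with only the pools of the comparison, and 0 to 11 with 1 pool left out. For the averaged difference 3 became 1 after quantile normalization, 17 with array weights, 7 with the SD filter, 0 without null high fat pool 1, wild type high fat pool 2 and wild type casein pool 3, 1 with muscle and liver medians as covariates and 0 to 13 with 1 pool left out. Array weights called 13 members for the diet change in null pools, against 0. The weight was largest for null high fat pool 2 and next largest for null casein pool 2, so this comparison leans on 1 pool in each group. The number of all genes called for the diet change in that fit is not given here, so the count is no result about the members by itself. The median interaction was 0.71 without the 3 pools, against 0.42.

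With the replicate block, the pool number as a block, 1 member was called on the high fat diet and 1 averaged over the diets. The main fit did not take the pool number as a pairing. Over all genes the count on the high fat diet, 1077, became 5120 with array weights, 523 after quantile normalization, 542 with the replicate block, 440 without the 3 pools and 0 to 1617 with 1 pool left out; the averaged count, 1368, became 4009, 643 with covariates, 829 with the block, 548 without the 3 pools and 157 to 2339 with 1 pool left out. Foxj1 minus Ovgp1 was -3.84 after quantile normalization, -4.30 without the 3 pools and -5.94 to -4.09 with 1 pool left out, against -4.76. Leaving out 1 pool moved the casein difference of Foxj1 between -0.030 and 0.63, and the diet difference in wild type pools between -0.19 and 0.31 for Foxj1, -1.49 and 0.10 for Dynlrb2 and -3.97 and 0.17 for Ovgp1; array weights gave 0.046 for Foxj1. The probe set with the largest SD was added after seeing the data. The cause of these changes was not tested.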
